A study of Rattus norvegicus with 10 samples.

Results

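The Slc25 genes encode the mitochondrial carriers, the largest family of solute carriers and the main route by which nucleotides, phosphate, keto acids and amino acids cross the inner mitochondrial membrane. A gene was taken as a member where its single symbol in the platform annotation starts with Slc25, and each gene was read from its probe set of highest mean. This gave 40 members of the 14218 genes that the array names with 1 symbol. Of the 40, 27 had a mean log2 level above the filter on low values and were tested, and 13 did not. All 40 matched RefSeq by gene number.

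Expression was measured in 10 untreated male Lewis rats, an inbred strain, of 200 to 250 g, taken from a set of 40 that had been tested for behaviour. Death followed the last of the tests by 6 days. The prefrontal cortex, dissected as areas Fr1 and Fr2, gave 1 Affymetrix array per rat. Each rat was scored for locomotion, sugar feeding, acoustic startle and prepulse inhibition (the damping of a startle by a weaker sound just before it), and 7 rats also on a plus maze. There are no treatment groups, so the question, how transcript levels in cortex relate to behaviour within a strain, was read as a slope across rats. Scores carry no stated unit, and rats are numbered 1 to 10 by replicate.

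Most mitochondrial carriers are small inner membrane proteins that exchange 1 solute for another. The ADP/ATP carriers and the phosphate carrier feed ATP synthase and export its product, while the aspartate/glutamate and oxoglutarate carriers form the membrane part of the malate-aspartate shuttle, which brings reducing power from the cytosol into the matrix. In brain the same family also handles glutamate, and it includes a branch of uncoupling-protein-like carriers. Neurons depend on these exchanges because their ATP is made mainly by oxidative phosphorylation.

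Values are log2 expression summaries made with GCRMA, so a difference of 1 doubles the signal, and levels were compared between rats for 1 probe set at a time, never between probe sets. The array medians lay between 3.91 and 4.02 and the upper quartiles between 8.12 and 8.25. All 12 neuron markers were above the filter, with means of 10.98 to 14.5. The score of striatal projection neuron markers (the mean of the markers' centred log2 values in a rat) was highest in rats 7 and 4, at 1.20 and 0.73, against -0.48 to 0.39 in the other 8. The score of meningeal and fibroblast markers was highest in rats 9 and 3, at 1.21 and 0.87.

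The carriers varied little between rats. The SD of the 27 tested members ranged from 0.03 to 0.25, with a median of 0.13, against a median of 0.13 for all 15521 tested probe sets. The highest rat exceeded the lowest by 1.08-fold to 1.85-fold, and 9 of the 27 spanned 1.5-fold or more. Rat 3 was lowest for 9 of the 27 and rat 4 highest for 8, so the extremes were not spread evenly over the animals. The same shares over all tested probe sets were not taken, so these counts are not shown to be particular to carriers. The upper quartile of the whole array was 8.12 in rat 3 and 8.22 in rat 4, and its part in these extremes was not tested.

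**Figure D1:**
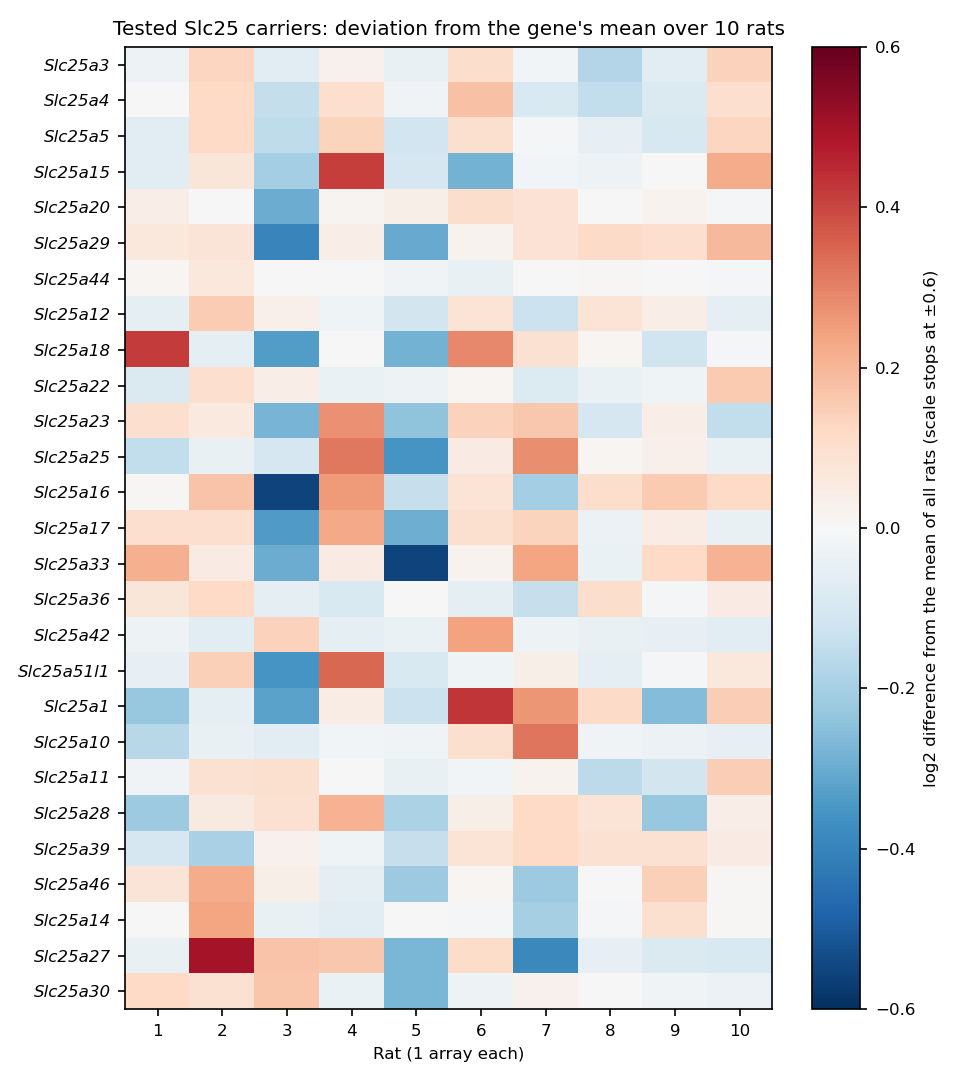
The log2 level of each tested Slc25 carrier in each of the 10 rats, shown as the difference from that carrier's mean over the rats and grouped by role. Rat 3 holds the lowest value of 9 carriers, and rat 4 the highest of 8, counts that were not taken over all probe sets.

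The adenine nucleotide and phosphate carriers supply ATP synthase and export ATP, and their ranges over the 10 rats were at most 0.32 on the log2 scale. Slc25a4 (Ant1), an ADP/ATP carrier of heart, muscle and brain, had a lowest level of 12.99, a median of 13.13 and a highest of 13.31. Slc25a5 (Ant2), an ADP/ATP carrier of many tissues, had 12.18, 12.30 and 12.46, with its highest value in rat 4 and its lowest in rat 3. RefSeq lists pseudogenes of Slc25a5, whose transcripts the probe set may also read, so its level is uncertain to that extent. Slc25a3, the phosphate carrier, had 12.37, 12.52 and 12.68. The germ-line ADP/ATP carrier Slc25a31 was below the filter, with a mean of 2.37.

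The promoters of 3 carriers are shown because the results below turn on them: the ADP/ATP carriers, among the members with positive slopes on respiratory chain transcripts, and the glutamate carrier Slc25a18, which rose with astrocyte markers. Each sequence is RefSeq's on the rat GRCr8 assembly, from 250 bases before the gene's start to 50 after it, 5′ to 3′ on the gene's strand. Slc25a5 lies at chrX:120897366-120897665 on the plus strand, Slc25a4 at chr16:52805271-52805570 on the plus strand and Slc25a18 at chr4:155672919-155673218 on the plus strand. Capitals mark the ETS letters CCGGAAG.
Slc25a5: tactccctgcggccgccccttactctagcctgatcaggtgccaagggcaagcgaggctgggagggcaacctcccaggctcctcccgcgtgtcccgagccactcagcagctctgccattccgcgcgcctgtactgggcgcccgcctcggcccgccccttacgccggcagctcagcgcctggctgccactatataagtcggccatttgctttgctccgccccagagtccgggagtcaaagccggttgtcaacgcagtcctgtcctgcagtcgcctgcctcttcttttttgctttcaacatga
Slc25a4: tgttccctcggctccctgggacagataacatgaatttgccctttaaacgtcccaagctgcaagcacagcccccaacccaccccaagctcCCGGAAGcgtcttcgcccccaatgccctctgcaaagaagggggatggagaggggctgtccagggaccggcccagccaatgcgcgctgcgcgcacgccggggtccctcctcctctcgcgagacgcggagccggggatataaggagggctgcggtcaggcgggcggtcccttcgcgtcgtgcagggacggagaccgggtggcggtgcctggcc
Slc25a18: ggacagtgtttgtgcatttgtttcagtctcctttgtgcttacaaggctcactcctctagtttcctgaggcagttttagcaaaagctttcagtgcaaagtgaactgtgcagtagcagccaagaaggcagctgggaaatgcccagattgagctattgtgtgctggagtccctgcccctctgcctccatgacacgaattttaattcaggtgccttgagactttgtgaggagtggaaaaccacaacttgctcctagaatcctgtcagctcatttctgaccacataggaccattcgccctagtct

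The GC content was 64.0% for Slc25a5, 67.3% for Slc25a4 and 48.0% for Slc25a18. Promoters were given for 34 of the 40 members, with a median GC content of 60.3%, against 52.3% over all 27457 promoters in the table. On either strand, the ETS letters CCGGAAG occurred in 6 of the 34 promoters (17.6%), those of Slc25a3, Slc25a4, Slc25a14, Slc25a17, Slc25a20 and Slc25a38, against 9.22% of all promoters. The palindromic NRF1 consensus occurred in 0 of 34, against 0.932% of all, and the ERR letters TCAAGGTCA in 0 of 34, against 0.412%. These motifs do not overlap in their letters, a match is not a binding site, and no match says only that those letters are not in the window.

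Among the glutamate and aspartate carriers, Slc25a18, a glutamate carrier, varied most, with a lowest level of 7.98 in rat 3, a median of 8.31 and a highest of 8.73 in rat 1. Slc25a22, the other glutamate carrier, had 11.74, 11.80 and 11.98, and Slc25a12 (aralar), the aspartate/glutamate carrier of neurons, had 9.38, 9.51 and 9.66. Their ranges were 0.24 for Slc25a22 and 0.28 for Slc25a12, against 0.75 for Slc25a18. Slc25a13 (citrin), the liver form of the aspartate/glutamate carrier, was below the filter, with a mean of 3.70. Slc25a11, the oxoglutarate carrier of the same shuttle, had 9.89, 10.04 and 10.19.

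Slc25a1, the citrate carrier that supplies cytosolic acetyl groups for lipid synthesis, had a lowest level of 6.95 in rat 3, a median of 7.26 and a highest of 7.70 in rat 6. Slc25a10, the dicarboxylate carrier, had 5.87, 6.01 and 6.36, and its highest value, in rat 7, stood clear of the next at 6.13. The calcium-regulated ATP-Mg/phosphate carriers set the adenine nucleotide pool of the matrix. Of these Slc25a23 had 11.16, 11.49 and 11.72 and Slc25a25 had 8.86, 9.20 and 9.53, both highest in rat 4.

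The uncoupling-protein-like branch held the carrier of widest fold between rats. Slc25a27 (Ucp4), a brain carrier of this branch, had a lowest level of 6.49 in rat 7, a median of 6.83 and a highest of 7.38 in rat 2, a span of 1.85-fold. Slc25a14 (Bmcp1) had 8.49, 8.68 and 8.92, with the same 2 rats at its ends. Slc25a30 had 5.70, 5.96 and 6.14, and its lowest value, in rat 5, lay apart from the next at 5.93.

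Of the cofactor and nucleotide carriers, Slc25a16 spanned 1.76-fold and Slc25a33, a pyrimidine nucleotide carrier, 1.73-fold. Slc25a16 had 7.52 in rat 3, a median of 8.17 and a highest of 8.34 in rat 4. Slc25a33 had 6.99 in rat 5, a median of 7.59 and a highest of 7.78 in rat 7. Slc25a17, a peroxisomal carrier of cofactors, had 8.49, 8.90 and 9.06, with rats 3 and 5 apart below the other 8. Slc25a39, which is needed for glutathione in mitochondria, had 9.06, 9.29 and 9.37. Slc25a46, an outer membrane protein of mitochondrial shape rather than a transporter, had 10.20, 10.42 and 10.64. Slc25a15, the ornithine carrier, had 6.06 in rat 6, a median of 6.32 and a highest of 6.76 in rat 4. At the other end Slc25a44, which carries branched-chain amino acids, varied by only 1.08-fold.

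The 13 members below the filter had means of 1.93 to 3.95 and were not tested in the reported fits. They were Slc25a13, Slc25a21, Slc25a24, Slc25a31, Slc25a32, Slc25a34, Slc25a35, Slc25a37, Slc25a38, Slc25a41, Slc25a45, Slc25a48 and Slc25a53. A low probe set signal does not show that a transcript was absent.

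The members were next set against scores of other gene lists measured on the same arrays. Slopes are in log2 units for each SD by which the score varied over the rats, with the SE, and were tested with limma over all 15521 probe sets. The astrocyte score, from 11 measured markers, ran from -0.20 in rat 5 to 0.25 in rat 6. Slc25a18 rose with it, by 0.21 ± 0.03 per SD (SE, n = 10, limma adjusted p = 0.0483), a carrier known in the literature for its expression in astrocytes. It was 1 of 27 members past the adjusted threshold, against 0.245% of all tested probe sets. In bulk tissue, fewer cells of a type and less RNA per cell cannot be told apart.

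The slope of Slc25a18 lay between 0.18 and 0.23 in the 10 fits that left out 1 rat each, but its adjusted p was then 0.0662 to 0.218, so the call ended whichever rat was left out. It also ended when arrays were centred on their medians (limma adjusted p = 0.222) and with the oxidative phosphorylation score as a covariate (0.774). Over all 19 alternatives the slope ran from 0.17 to 0.25 and the adjusted p from 0.0356 to 0.774. The astrocyte score itself moved with each array's upper quartile (r = 0.70, permutation p = 0.0254, adjusted over 10 pairs 0.0682; rho = 0.65, p = 0.0493, adjusted 0.123; r = 0.58 without rats 5 and 6). The part of that array measure in the result of Slc25a18 was not tested beyond its use as a covariate, where the slope kept its sign and the limma adjusted p was 0.377.

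At an unadjusted p under 0.05, 5 of 27 members (18.5%) had a positive slope on the astrocyte score, a share near the 15.2% of all tested probe sets in either direction and 13.9% with a positive slope. Beside Slc25a18 these were members that did not pass the adjusted threshold: Slc25a23, with a slope of 0.15 ± 0.04 (limma adjusted p = 0.120), Slc25a17 at 0.15 ± 0.04 (0.126), Slc25a33 at 0.17 ± 0.06 (0.214) and Slc25a1 at 0.15 ± 0.06 (0.275). The glutamate carrier Slc25a22 had a slope of -0.01 ± 0.03, the negative slope of smallest p among the members. Slopes were positive for 22 of 27 members, against 72% of all tested probe sets, for 15 of 27 without rat 5 and for 11 of 27 with the oxidative phosphorylation score as a covariate.

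**Figure D2:**
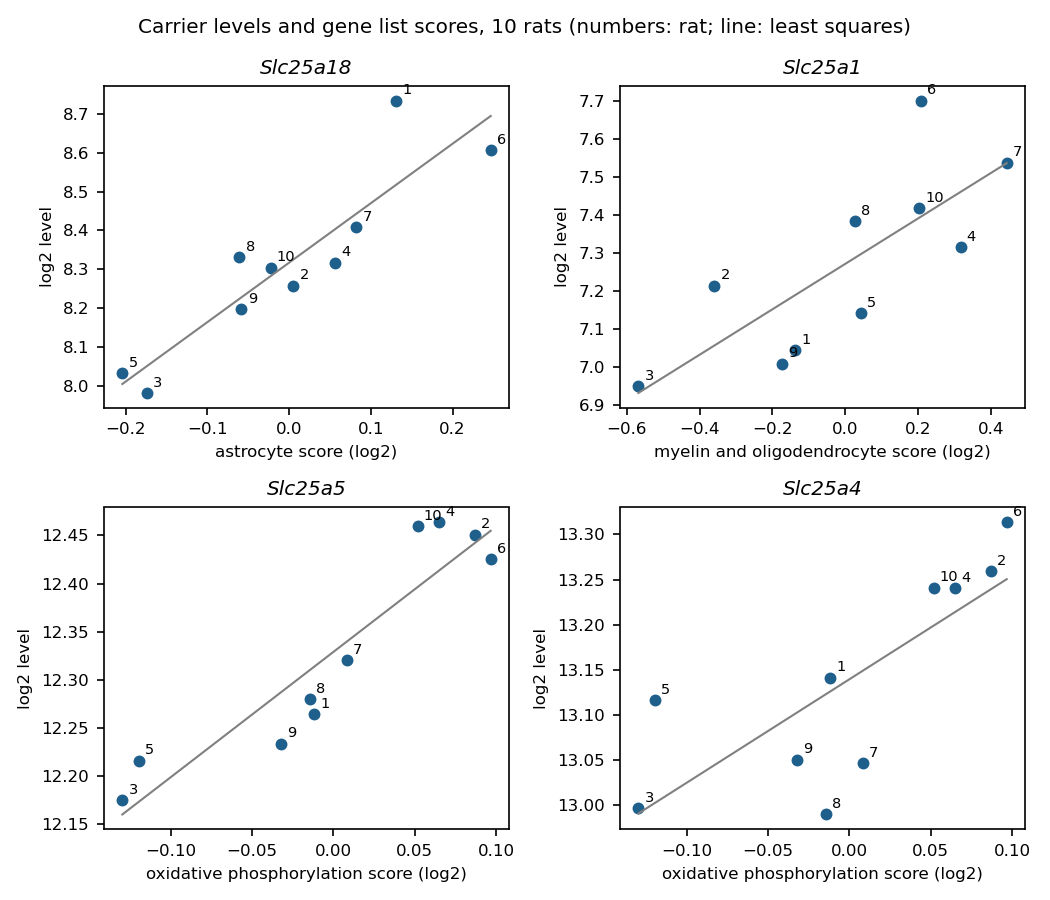
Log2 levels of 4 carriers in the 10 rats against a gene list score in the same rat, each point numbered by rat with a least squares line. The slope of Slc25a18 on the astrocyte score is 0.21 log2 per SD (adjusted p = 0.0483, at least 0.0662 whichever rat is left out), and that of Slc25a1 on the myelin and oligodendrocyte score is 0.19 (adjusted p = 0.101, not past the threshold).

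Myelin and oligodendrocyte markers gave a score of 16 genes from -0.57 in rat 3 to 0.44 in rat 7. No member passed the adjusted threshold, against 2.02% of all tested probe sets, and 4 of 27 (14.8%) had an unadjusted p under 0.05, against 16%. Slopes were positive for 17 of 27, against 59.9% of all. Slc25a1 had the smallest p, with a slope of 0.19 ± 0.05 per SD (n = 10, limma adjusted p = 0.101), and its slope stayed between 0.13 and 0.21 over all 19 alternatives. Its slope on the meningeal score was -0.17 ± 0.06, which did not pass (limma adjusted p = 0.999). The myelin and meningeal scores had a negative correlation that did not pass its test (r = -0.59, permutation p = 0.0690, adjusted over 10 pairs 0.138; rho = -0.53, p = 0.123, adjusted 0.190; r = -0.49 without rats 3 and 7). With the meningeal score as a covariate the myelin slope of Slc25a1 was 0.13, the lowest of those alternatives. The other 3 of the 4 were the carnitine/acylcarnitine carrier Slc25a20 at 0.08 ± 0.03, Slc25a10 at 0.08 ± 0.04 and Slc25a46 at -0.09 ± 0.04. Another probe set of Slc25a46 had a slope of 0.05, of opposite sign, so the direction for this gene depends on the probe set. On the oxidative phosphorylation score described below, the same pair of probe sets had slopes of 0.04 (the member) and 0.23.

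Against the striatal projection neuron score, 0 of 27 members passed the adjusted threshold in limma's test, against 1.6% of all tested probe sets, and 4 (14.8%) had an unadjusted p under 0.05, against 14.5%. Slopes were positive for 17 of 27, against 53.3% of all. Slc25a25 had a slope of 0.13 ± 0.05 (limma adjusted p = 0.221) and Slc25a10 of 0.09 ± 0.03 (0.282), while Slc25a14 had -0.08 ± 0.03 (0.279) and Slc25a46 -0.09 ± 0.04 (0.280). Each of these slopes was smallest without rat 7, which had the highest striatal score: 0.0097 for Slc25a10, 0.09 for Slc25a25, -0.04 for Slc25a14 and -0.06 for Slc25a46. Against the meningeal score, 0 passed the adjusted threshold, against 0.187% of all, and Slc25a1 alone had an unadjusted p under 0.05, against 3.65%. Of the 27 slopes on the meningeal score 11 were positive, against 39.5% of all tested probe sets, and the positive slope of smallest p was that of Slc25a46, at 0.07 ± 0.04.

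Respiratory chain and ATP synthase transcripts, taken as a score of 44 nuclear genes, ran from -0.13 in rat 3 to 0.10 in rat 6. Slopes on this score were positive for 26 of 27 carriers, against 72.2% of all tested probe sets. The count was 24 to 27 whichever rat was left out, but 19 under median centring and 20 with the upper quartile of each array as a covariate. The 72.2% belongs to the reported fit, and the shares over all tested probe sets in these refits are not given here. Markers of most cell types shared the direction. Slopes were positive for 12 of 12 neuron markers (5 at an unadjusted p under 0.05), 11 of 11 astrocyte markers (7) and 6 of 6 microglia markers (2). They were positive for 8 of 8 endothelial (0), 12 of 12 striatal (0) and 15 of 16 myelin markers (0), and for 0 of 7 meningeal markers (0). The positive direction is thus not shown to be particular to mitochondrial carriers. The median slope was 0.07 over the members, against 0.04 over all tested. By limma's test 0 of 27 members and 0% of all probe sets passed the adjusted threshold, and 11 members (40.7%), all with positive slopes, had an unadjusted p under 0.05, against 21.8% of all in either direction and 19.5% with a positive slope. Slc25a42, a carrier of coenzyme A, was the exception in sign, with a slope of -0.00037 ± 0.036 whose sign is not settled.

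The carriers that exchange ADP, ATP and phosphate were among the 11. Slc25a5 had a slope of 0.10 ± 0.02 (n = 10, limma adjusted p = 0.0787), Slc25a4 of 0.09 ± 0.03 (0.119) and Slc25a3 of 0.07 ± 0.03. The others were Slc25a17, Slc25a29, Slc25a16, Slc25a51l1, Slc25a23, Slc25a1, Slc25a33 and Slc25a18. The highest slope was that of Slc25a16, at 0.18 ± 0.05 (limma adjusted p = 0.114). By role, 3 of 3 tested adenine nucleotide and phosphate carriers and 4 of 6 cofactor and nucleotide carriers (with Slc25a51l1, placed there by its symbol alone) were among the 11, against 0 of 3 uncoupling-protein-like carriers and 0 of 2 carriers of iron and glutathione. The difference between role groups was not tested.

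**Figure D3:**
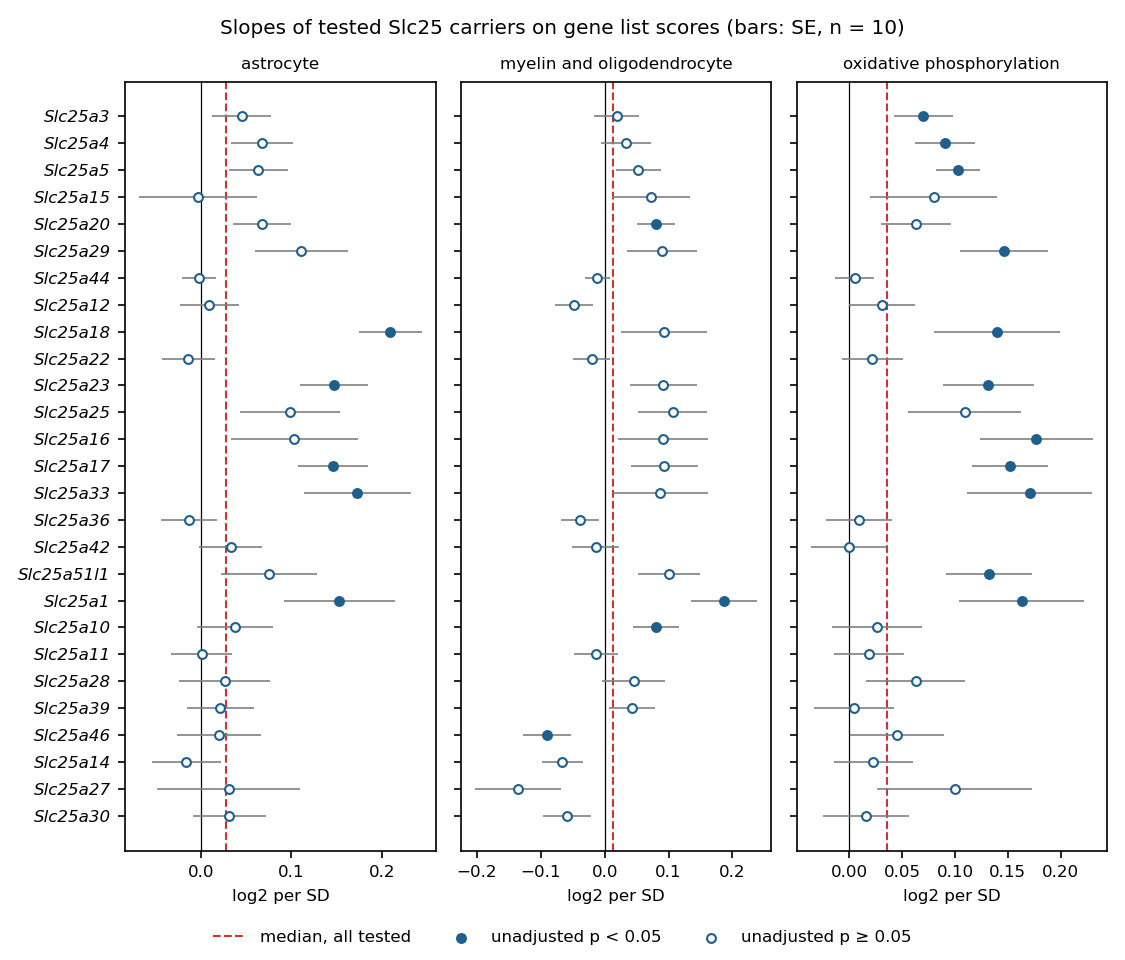
Slopes of the 27 tested carriers in log2 per SD of the astrocyte, myelin and oligodendrocyte, and oxidative phosphorylation scores, with SE (n = 10), where filled points mark an unadjusted p under 0.05 and the dashed line the median slope of all 15521 probe sets. On the oxidative phosphorylation score 26 of 27 points lie above 0 and 11 are filled.

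The oxidative phosphorylation score moved with the astrocyte score and with each array's upper quartile, both past the adjusted threshold for r but not for rho. Its correlation with the astrocyte score was r = 0.78 (permutation p = 0.00826, adjusted over 10 pairs 0.0413; rho = 0.77, p = 0.0123, adjusted 0.0574; r = 0.60 without rats 5 and 6), so the slopes of a carrier on these scores are not separate evidence. It correlated with each array's upper quartile at r = 0.82 (permutation p = 0.0042, adjusted over 10 pairs 0.0413; rho = 0.79, p = 0.00828, adjusted 0.0574), and at 0.64 without rats 3 and 5. It correlated with the Gapdh 3′ minus 5′ difference, a sign of RNA quality, at r = -0.69 (permutation p = 0.0273, adjusted 0.0682; rho = -0.75, p = 0.0172, adjusted 0.0574; r = -0.70 without rats 3 and 5). The Actb 3′ minus 5′ difference, a measure of the same kind as that of Gapdh, had r = -0.16 (permutation p = 0.681, adjusted 0.757, rho = -0.19). The spike-in level had r = 0.23 (permutation p = 0.524, adjusted 0.655, rho = 0.52). With the upper quartile of each array as a covariate, 3 members had an unadjusted p under 0.05 in place of 11: Slc25a1, Slc25a5 and Slc25a29. Median centring left 5 members, quantile normalization 5, the astrocyte score as a covariate 4, and the fit without rat 3 left 6. The shares over all tested probe sets in these refits are not given here. The fall from 11 is thus not shown to be particular to carriers. Slc25a5 was in each of the 5 sets of members. Its adjusted p ran from 0.0389 to 0.403 over 19 alternatives, with slopes of 0.06 to 0.14, so its call depends on the setting.

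No carrier's level was related to a behaviour past the adjusted threshold. For all 5 behaviour scores limma's test called 0 of 27 members and 0% of the 15521 probe sets, and no member was called in any of 101 refits under other settings. The unadjusted counts follow, as a description of the strongest slopes.

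For acoustic startle, 3 of 27 members (11.1%) had an unadjusted p under 0.05, against 5.59% of all tested probe sets. Slc25a39 was 9.06 and 9.15 in rats 2 and 1, which startled least, and 9.34 and 9.37 in rats 9 and 7, which startled most. Its slope was 0.08 ± 0.03 per SD (n = 10, p = 0.0219, limma adjusted p = 0.808), and rat 5, with a score of 765 and a level of 9.11, lay off the trend. Slc25a27 ran the other way, at -0.16 ± 0.06 (p = 0.0248, limma adjusted p = 0.808), with 7.38 in rat 2 and 6.49 in rat 7. The other tested probe sets of Slc25a27 also had negative slopes, of -0.02 and -0.11. Slc25a10 had a slope of 0.08 ± 0.04 (p = 0.0489, limma adjusted p = 0.808).

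Single rats carried these slopes to different degrees. Without rat 7 none of the 3 had an unadjusted p under 0.05, and without rat 2 only Slc25a10 did. Rat 7 also had the highest striatal marker score, and without the 3 rats of highest striatal marker score 0 members had an unadjusted p under 0.05. The share over all tested probe sets in that fit is not given here. Among the other carriers, the pyrimidine nucleotide carrier Slc25a36 had a startle slope of -0.05 ± 0.03. Slopes on startle were positive for 6 of 27 members, against 37.7% of all tested probe sets, with medians of -0.02 and -0.02. The count was 10 of 27 without rat 2 and 13 of 27 under median centring, so the direction of the members as a whole depends on the scaling. Shares over all tested probe sets in these refits are not given here.

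Slc25a30 was the member of smallest p for sugar feeding and for prepulse inhibition. Its slope on sugar feeding was 0.10 ± 0.03 (n = 10, p = 0.00678, limma adjusted p = 1), and it was 1 of 27 members (3.7%) with an unadjusted p under 0.05, against 2.13% of all. Its slope on prepulse inhibition was -0.08 ± 0.03 (p = 0.0252, limma adjusted p = 0.630), again 1 of 27 (3.7%), against 7.41%. Rats 3, 1 and 2 had the highest levels, of 6.14, 6.10 and 6.07, with sugar feeding scores of 2.00, 1.95 and 1.65 and the lowest prepulse inhibition scores, 18.4, 6.80 and 10.7. Rat 5 had the lowest level, 5.70, with a sugar feeding score of 0 and a prepulse inhibition score of 39.4. Without rat 5 the sugar feeding slope was 0.05, and the prepulse inhibition slope -0.06, and with all 4 main scores in 1 model the prepulse inhibition slope was 0.0063, of opposite sign. Sugar feeding and prepulse inhibition were scored in the same rats, so these slopes are not separate evidence.

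**Figure D4:**
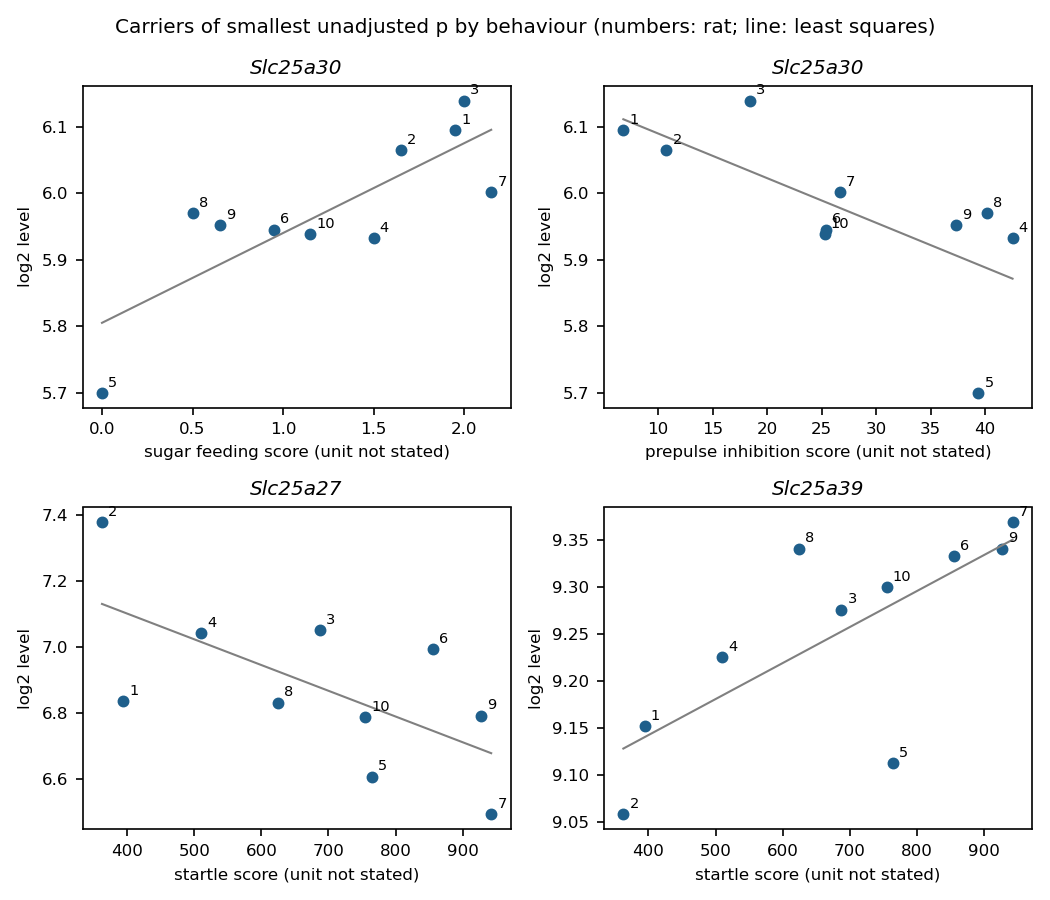
Log2 levels of Slc25a30, Slc25a27 and Slc25a39 against behaviour scores (unit not stated) in the 10 rats, numbered, with a least squares line. Rat 5 lies lowest for Slc25a30, at 5.70, and rat 2 highest for Slc25a27, at 7.38.

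Beyond these, sugar feeding had Slc25a33 at 0.12 ± 0.07, Slc25a16 at -0.08 ± 0.07 and Slc25a36 at -0.02 ± 0.03 among the named carriers. The slope of Slc25a33 fell to 0.0053 without rat 5. Prepulse inhibition had Slc25a39 at 0.04 ± 0.04, Slc25a16 at 0.06 ± 0.08 and Slc25a11 at -0.05 ± 0.03. Positive slopes numbered 19 of 27 for sugar feeding, against 58.4% of all tested probe sets, and 9 of 27 for prepulse inhibition, against 41.3%. The sugar feeding count was 12 without rat 5 and 22 without rat 1. The prepulse inhibition count was 6 without rat 4, 15 without rat 2 and 14 under median centring. Both shares of all tested probe sets belong to the reported fits, and those of the refits are not given here.

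Locomotion gave 0 of 27 members with an unadjusted p under 0.05, against 2.93% of all tested probe sets. The smallest p was that of Slc25a23, with a slope of 0.10 ± 0.05 (n = 10, p = 0.0657, limma adjusted p = 1), followed by Slc25a17 at 0.08 ± 0.05. On the negative side were Slc25a39 at -0.05 ± 0.04 and Slc25a22 at -0.03 ± 0.03. Positive slopes numbered 17 of 27, against 65.4% of all, but 10 of 27 without rat 4 and likewise 10 under median centring. The 65.4% belongs to the reported fit, and the shares in these refits are not given here.

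In the 7 rats with a plus maze score, 3 of 27 members (11.1%) had an unadjusted p under 0.05, all with negative slopes, against 6.95% of all tested probe sets and 5.74% with a negative slope. Slc25a29, a carrier of basic amino acids, had a slope of -0.15 ± 0.03 (n = 7, limma adjusted p = 0.558). Slc25a33 had -0.25 ± 0.05 (limma adjusted p = 0.558) and Slc25a30 -0.11 ± 0.03 (limma adjusted p = 0.657). Rat 5 had a score of 60.3, against 20.2 in the next rat, and the lowest level of these 3 carriers among the 7: 4.45 for Slc25a29, 6.99 for Slc25a33 and 5.70 for Slc25a30. Without rat 5 the slope of Slc25a29 was -0.03 and that of Slc25a33 -0.02, and 0 members had an unadjusted p under 0.05. The count over all tested probe sets also fell without rat 5, as given below, so the loss is not shown to be particular to carriers. Slopes were positive for 2 of 27 members, against 39.2% of all, among them that of Slc25a42 at 0.0041, but for 12 of 27 without rat 5 and for 6 of 27 under median centring. The 39.2% belongs to the reported fit, and the shares in these refits are not given here.

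**Figure D5:**
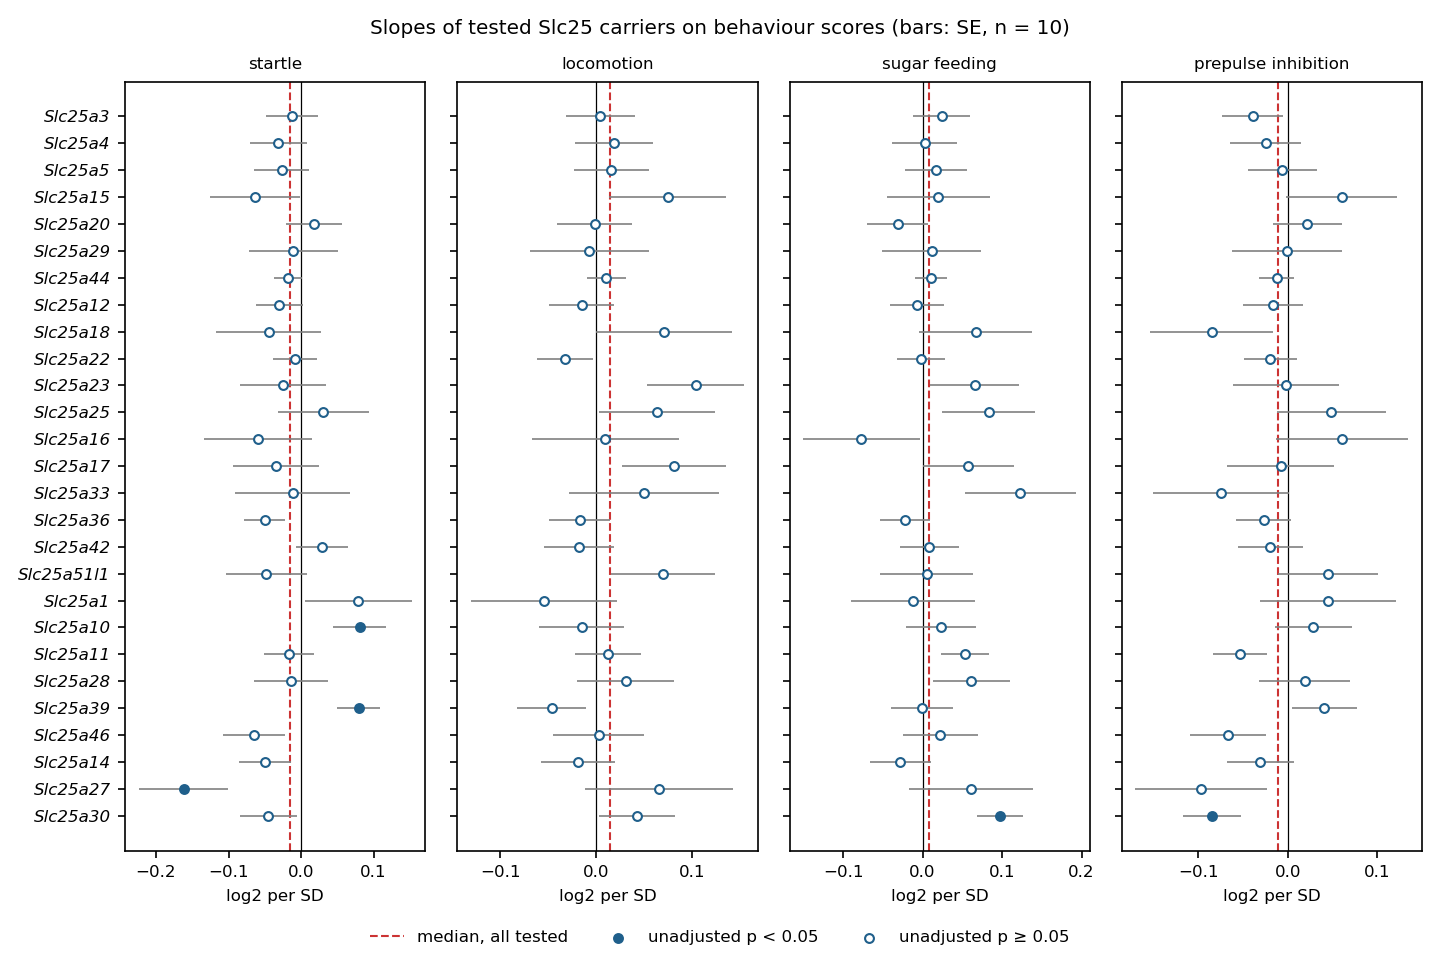
Slopes of the 27 tested carriers in log2 per SD of the startle, locomotion, sugar feeding and prepulse inhibition scores, with SE (n = 10). The plus maze is not drawn. No slope passed the adjusted threshold, and the widest, that of Slc25a27 on startle, is -0.16.

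The proteins that carriers meet on their way into the membrane, and the other routes for solutes, were read from lists of their own. None of these lists had a gene past the adjusted threshold for a behaviour in limma's test. For startle, where 5.59% of all tested probe sets had an unadjusted p under 0.05, this held for 1 of 16 import genes, Tomm40, the outer membrane import pore, at a slope of 0.10. Of 15 genes for other solute routes it held for Abcb8 alone, an ABC transporter of the inner membrane, at 0.13. These counts are near the share over all probe sets. Mtch2, an outer membrane protein with the carrier fold, had -0.10, the only one of 3 measured carrier-fold genes under other symbols to do so. For the plus maze, 0 of 16 import genes had positive slopes, against 39.2% of all tested probe sets. Positive slopes were also few among markers of striatal neurons (0 of 12), meninges (0 of 7) and astrocytes (1 of 11). They numbered 8 of 16 for myelin, 3 of 6 for microglia and 4 of 8 for endothelial markers. The direction is thus not shown to be particular to import genes. Of the import genes 2, Timm8b and Tomm20, had an unadjusted p under 0.05, as did Micu3 among the 15 other solute routes, against 6.95% of all tested probe sets. These genes were not refitted without rat 5. For locomotion, sugar feeding and prepulse inhibition 0 genes of these lists had an unadjusted p under 0.05, by limma's test. The uncoupling protein gene Ucp2 was tested, and Ucp1 and Ucp3 were below the filter.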

How the data were processed

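Gene expression was measured on 10 Affymetrix rat arrays, 1 per rat. The deposited values are log2 probe set summaries that the authors made with GCRMA under R 2.6.2, per the submitters' processing notes; GCRMA's version: not given in the sources used here. GCRMA corrects the background with probe sequence and normalises by quantiles, so differences in total RNA are not kept. The 57 controls were left out of 31099 probe sets, and the 50% with the highest mean were kept, 15521 with a mean of at least 3.99.

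Names came from the platform annotation. The 40 members had 58 probe sets, 28 members having 1 and 12 several, and 2 further probe sets that repeat an Slc25 symbol under different gene numbers were not members. Each log2 value was regressed on a score scaled to an SD of 1 by lmFit and eBayes of limma 3.58.1 (R 4.3.3), and two-sided p-values were adjusted by Benjamini and Hochberg's method over the 15521 probe sets, with 0.05 as threshold. There were 10 comparisons: 5 behaviours and 5 list scores. No list score holds an Slc25 gene, but the scores come from the same arrays. The fit was tested on simulated data. For correlations, r is Pearson's and rho Spearman's, each tested two-sided by permutation with 1e+05 resamples. None of the 4 main behaviours was related to a list score in a family of 20 pairs (adjusted p at least 0.905 for r and 0.748 for rho).

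The members and lists were chosen with earlier results of these data known. Named genes followed a rule: for each behaviour the 2 tested members of smallest p in each direction that kept their sign without any 1 rat, the 6 of largest SD, for each list score up to 3 past the threshold per direction or else the 1 of smallest p, and a panel of 12 carriers. Genes named outside it, as those behind small counts, were chosen after their values were seen. The number of arrays limits the precision. Each p-value of a slope sets the slope against the spread of these rats about the fitted line, which eBayes adjusts with all probe sets. With 1 array per rat, that spread does not separate rat, dissection and array.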

Additional observations from a re-analysis of the deposited data

Results flagged for a closer look

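Of 40 members and 10 scores examined, 9 had a rat whose gap to the nearest other rat was large against the whole range (Dixon's test at 95%). Chance gives about 1 in 20 where values follow a normal distribution. The share flagged over all probe sets was not taken, so the count is not shown to be particular to carriers. Among tested members, Slc25a10 was highest in rat 7 at 6.36 (next 6.13), Slc25a20 lowest in rat 3 at 5.97 (next 6.26), Slc25a30 lowest in rat 5 at 5.70 (next 5.93) and Slc25a44 highest in rat 2 at 8.58 (next 8.53). Among members below the filter, Slc25a32 was highest in rat 7 at 3.52 (next 3.40), Slc25a37 lowest in rat 9 at 2.86 (next 3.04), Slc25a38 highest in rat 3 at 3.00 (next 2.96) and Slc25a53 lowest in rat 1 at 3.56 (next 3.95). The plus maze score of rat 5 was 60.3, against 20.2 in the next of 7 rats. Slc25a30 and the plus maze score thus stood apart in the same rat.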

How the results depend on the processing

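No paired analysis was possible because the rats form 1 group with 1 array each. In 101 refits of the behaviour scores no member passed the adjusted threshold. The astrocyte score had 1 member past it (Slc25a18), and 0 under median centring, quantile normalization, ranks of the score, the upper quartile or the oxidative phosphorylation score as a covariate, and 0 to 0 whichever rat was left out. It kept 1 with no filter, with 75% of probe sets kept, with the trend and robust options and with the mean over a gene's probe sets. The oxidative phosphorylation score had 0, and 1 under quantile normalization (Slc25a1) and with no filter, 75% kept, and the trend and robust options (Slc25a5 each time).

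Signs turned for Slc25a36 on sugar feeding without the 3 rats of highest striatal marker score (0.0068), Slc25a16 on sugar feeding without the 2 rats of highest meningeal score (0.0040), Slc25a30 on prepulse inhibition with 4 scores in 1 model (0.0063) and Slc25a42 on the plus maze under quantile normalization (-0.011). Slc25a42 on the oxidative phosphorylation score, at -0.00037, turned to 0.028 under quantile normalization, 0.012 with ranks and 0.0026 with the upper quartile as a covariate, and ranged from -0.043 to 0.036 without 1 rat. The cause was not tested. Among refits of named slopes, 539 kept sign and side of the threshold, 15 lost the call (all Slc25a18), 3 gained one (Slc25a5) and 12 turned sign. Covariates other than the striatal score, and the fits without the 3 or 2 rats, were chosen after seeing the data.

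Probe sets past the adjusted threshold over all tested numbered 38 for the astrocyte score, against 0 under median centring and 119 with the trend and robust options. For the oxidative phosphorylation score they numbered 0, against 575 under quantile normalization and 179 with the trend and robust options. Unadjusted counts for startle were 867, against 336 without rat 2 and 1323 without rat 4, and for the plus maze 1078, against 358 without rat 5.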

Other observations

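Other parts of the solute and import machinery had positive slopes on the oxidative phosphorylation score, as the carriers did, although no gene passed the adjusted threshold in limma's test (0% of all tested probe sets). Slopes were positive for 15 of 15 genes of other mitochondrial solute routes, against 72.2% of all tested probe sets, and 8 had an unadjusted p under 0.05, against 21.8%. These were the 3 porins of the outer membrane, Vdac1, Vdac2 and Vdac3, both pyruvate carrier subunits, Mpc1 and Mpc2, and the calcium uniporter genes Mcu, Smdt1 and Micu3. Vdac2 had a slope of 0.10 ± 0.02 (limma adjusted p = 0.0787), Mpc1 of 0.11 ± 0.02 (0.0774) and Mcu of 0.21 ± 0.05 (0.0905).

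Of 16 genes of the carrier import route 15 had a positive slope, against 72.2% of all tested probe sets, and 7 had an unadjusted p under 0.05, against 21.8%, among them the import receptors Tomm20, at 0.11 ± 0.02, and Tomm70, at 0.10 ± 0.04. Most marker lists of other kinds had the same direction on this score, such as 12 of 12 neuron markers (5 at an unadjusted p under 0.05) and 11 of 11 astrocyte markers (7). Meningeal markers did not (0 of 7), and 0 striatal, myelin or endothelial markers had an unadjusted p under 0.05. The direction is thus not shown to be particular to mitochondrial genes. Slopes were also positive for 4 of 4 malate-aspartate shuttle enzymes. Of these 2, the transaminases Got1 and Got2, had an unadjusted p under 0.05, against 21.8% of all tested probe sets. The score correlated with the array upper quartile past the adjusted threshold for r but not for rho, as given above. Its correlation with the Gapdh 3′ minus 5′ difference did not pass, and that with the Actb difference was weak. The part of these array measures in these slopes was not tested.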
